A study of Mus musculus with 20 samples.

Results

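Cytochrome P450 (Cyp) genes were followed in the intestine of wild type mice and of mice without Spdef, at 2 ages and in 2 segments of the gut. Members were the genes named Cyp plus a digit whose probe was well above background in the wild type channel on all arrays of at least 1 group, with the brightest such probe standing for the gene. They were thus selected on measured wild type signal. The rule kept 52 of the 73 Cyp genes on the array (67 of 107 probes), among 17067 genes tested. Because wild type signal chose the members, their wild type levels are given as a description, and a wild type p is given just for members above background on all arrays of both groups compared. The ratios of knockout over wild type did not enter the rule.

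Each of 20 two-colour arrays compared a pool of RNA from Spdef knockout (KO) mice with a wild type pool. Adult small intestine gave 2 such pairs, adult colon 3, fetal small intestine 3 and fetal colon 2, each hybridised in both dye orders. Adults were at postnatal day 30 and fetuses at E18.5, late in gestation. Each pool combined whole organs of 2 to 3 littermates, so it holds muscle, stroma and blood cells beside epithelium, and the labels give neither the strain, the design of the null allele nor the sex. Fewer cells of a type and less RNA per cell cannot be told apart in such pools. Spdef is an ETS-family transcription factor of secretory epithelial cells.

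Cytochromes P450 are haem enzymes that insert oxygen into their substrates, with electrons passed from P450 reductase (Por) or, in mitochondria, from ferredoxin. Families 1 to 3 oxidise drugs and other foreign compounds, and are known in the adult small intestine as the first barrier to swallowed chemicals. Family 4 hydroxylates fatty acids and eicosanoids. The remaining families make or clear sterols, bile acids, steroid hormones, vitamin D and retinoic acid.

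Spdef signal was lower in KO on 20 of 20 arrays, by log2 -4.09 to -1.20. The pools labelled fetal small intestine 3 and fetal colon 1, which share a slide, went against their labels. Wild type log2 intensity of Onecut2, a factor of the proximal intestine, was 11.06, 11.07 and 7.64 in the 3 libraries labelled fetal small intestine, and 11.35 and 7.55 in those labelled fetal colon. Hoxb13, a gene of the hindgut, ran the other way, at 7.04, 7.06, 11.61, 7.0 and 11.21 in the same order. Groups were kept as labelled, and the comparisons of adult with fetal wild type pools are also given without that slide. Fetal small intestine pairs 1 and 2 differed by less than the noise between arrays (variance ratio 0.266, against 0.976 to 4.20 for other pairs of a group) and were counted as 1 replicate. Without that slide each fetal group thus holds 1 replicate, and the spread comes from the adult pools alone. All 9 pancreatic enzyme markers were above background in the wild type pools of adult small intestine and of adult colon pairs 1 and 3, against 4 of 9 in adult colon pair 2. Their mean KO over wild type was log2 0.95 and -3.82 in adult small intestine and -2.60, -0.08 and -2.91 in adult colon.

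**Figure D1:**
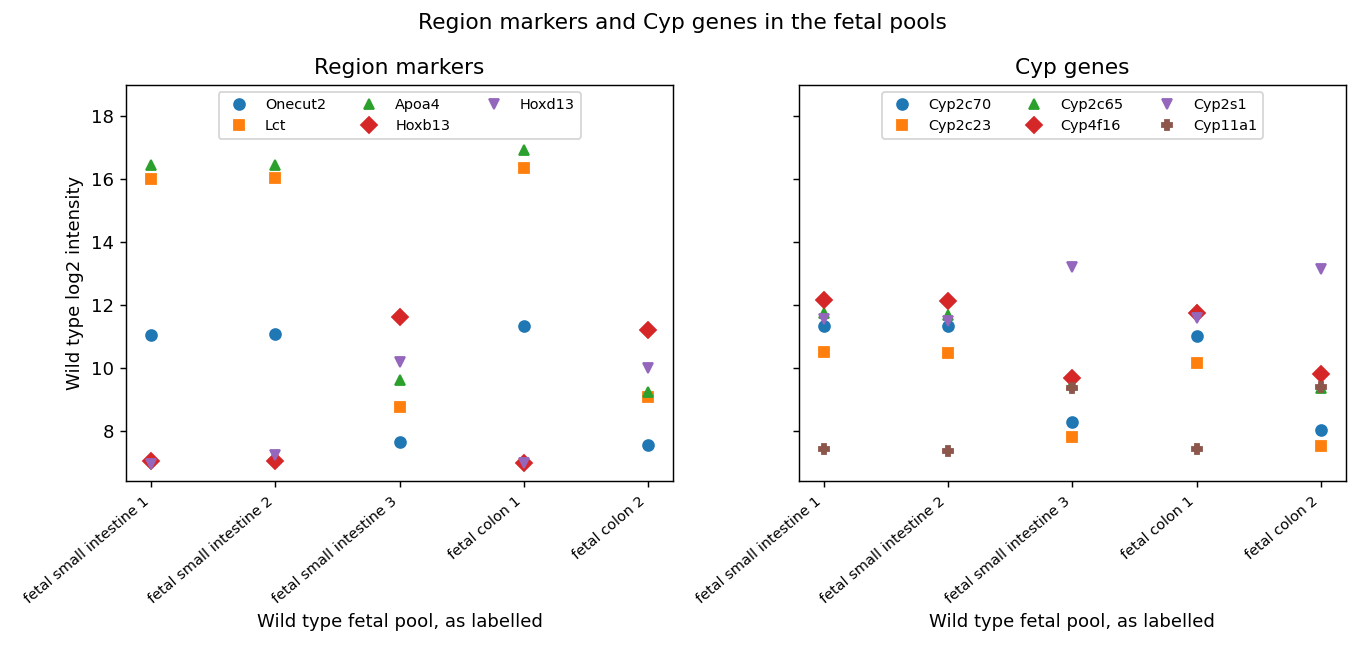
Wild type log2 intensity (y axis) in the 5 fetal pools as labelled (x axis), for region markers on the left and Cyp genes on the right, 1 point per pool. The libraries labelled fetal small intestine 3 and fetal colon 2 sit together, as do fetal small intestine 1, 2 and fetal colon 1, for markers and Cyp genes alike.

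Of the 52 members, 23 were above background on all wild type arrays of all 4 groups, 12 of 3 groups, 6 of 2 groups and 11 of 1 group. Of those 11, 9 were kept through adult small intestine: Cyp1b1, 3 Cyp2b genes (Cyp2b9, Cyp2b10 and Cyp2b13) and 5 Cyp3a genes (Cyp3a11, Cyp3a16, Cyp3a25, Cyp3a41a and Cyp3a44). Cyp2d13 was kept through adult colon and Cyp4a12a through the libraries labelled fetal colon. Just outside the rule lay Cyp2e1 and Cyp4x1, each above background on 5 of 6 arrays of adult colon. Detection differed between the adult colon pairs. In pair 1, 28 of the 52 members were above background on all its wild type arrays, against 43 in pair 2 and 43 in pair 3. Cyp2c29, with a wild type mean of 10.86 in adult colon, was also above background on 5 of 6 arrays there. A count of 5 of 6 thus does not by itself show a low level. Cyp2w1, kept through 3 groups, was above background on 2 of 4 arrays of adult small intestine. The liver genes Cyp7a1 and Cyp8b1, which make bile acids, were above background on 1 and 0 of 4 adult small intestine arrays, and 9 of the 21 Cyp genes left out were above background on no wild type array. Probes of close paralogues, among them Cyp2c29 and Cyp2c40, Cyp2d9 and Cyp2d10, and the Cyp3a and Cyp2b genes, can bind each other's RNA, so values within these clusters are uncertain by gene.

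**Figure D2:**
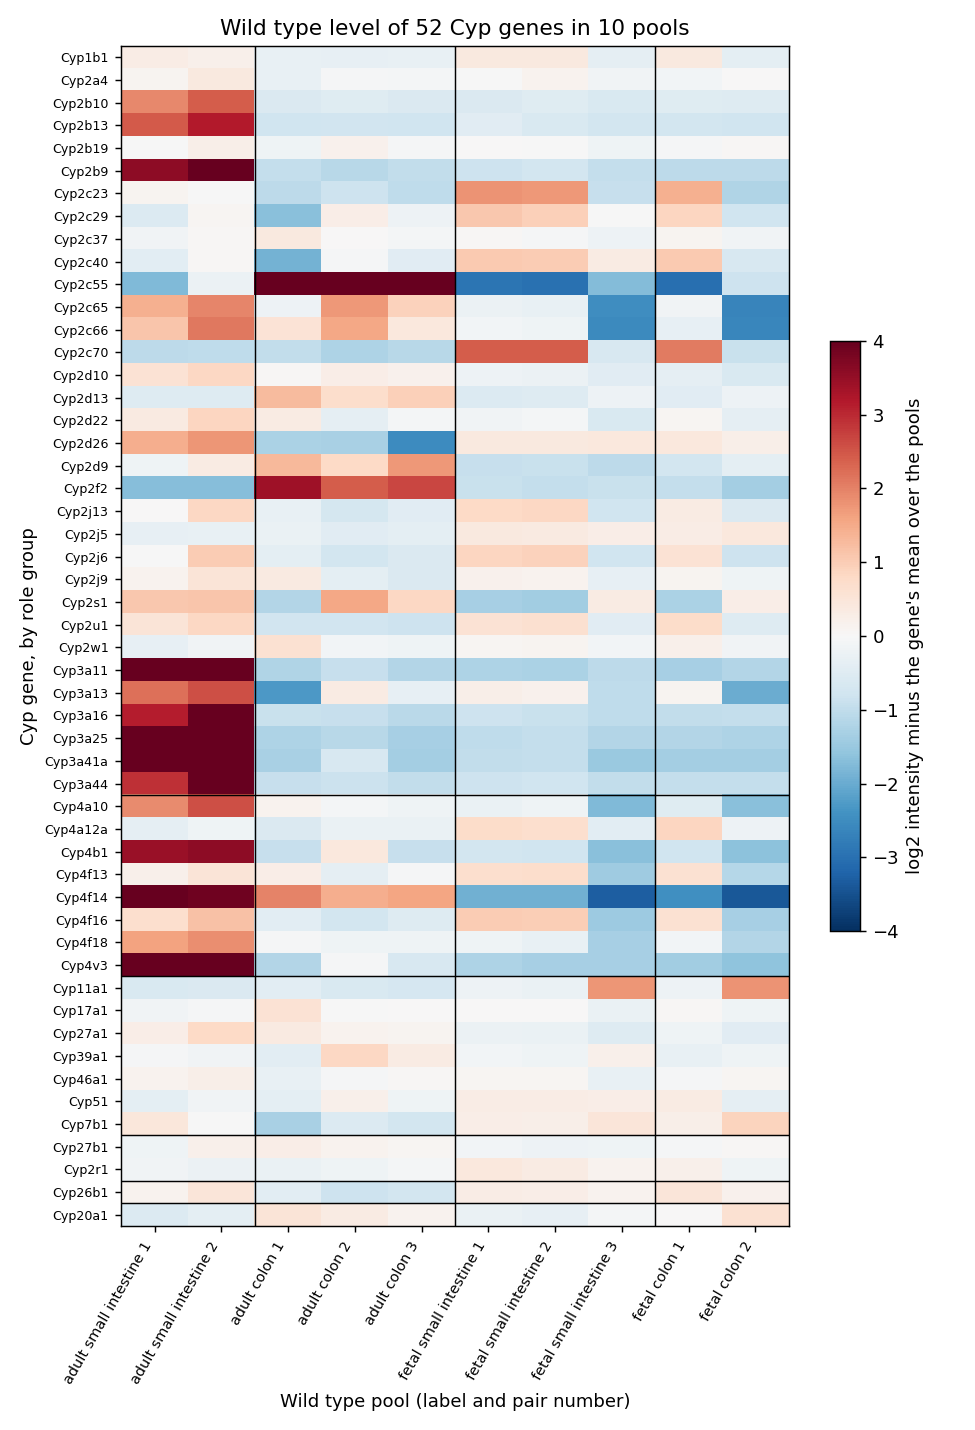
Wild type level of the 52 members (rows, by role group) in the 10 pools (columns), coloured by log2 intensity minus the gene's mean over the pools, with differences beyond 4 drawn at the end of the scale. The Cyp3a and Cyp2b genes and Cyp4v3 stand out in adult small intestine, Cyp2c55 and Cyp2f2 in adult colon.

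The Cyp3a genes, whose human relative CYP3A4 is the chief drug-oxidising enzyme of the gut, had 5 clustered members that were high in adult small intestine, the tissue through which the rule kept them. Wild type log2 intensity of Cyp3a11 was 12.42 and 13.85 in the adult small intestine pools, 7.23, 7.51 and 7.28 in adult colon, 7.20, 7.18 and 7.39 in the libraries labelled fetal small intestine and 7.13 and 7.27 in those labelled fetal colon. The adult small intestine pools did not overlap with any other pool. Cyp3a25 was at 12.51 and 13.07 in adult small intestine against 6.97, 7.09 and 6.87 in adult colon, 7.16, 7.24 and 7.02 in the libraries labelled fetal small intestine and 7.02 and 6.96 in those labelled fetal colon. It was above background on 4 of 4 adult small intestine arrays and on 0 of 6 adult colon arrays, a level at least 52.7-fold higher. The bounds for Cyp3a16 and Cyp3a44 were at least 26.4-fold and 22.8-fold, and the folds of Cyp3a11 and Cyp3a41a over adult colon, where 5 of 6 arrays measured each, were 55.5 and 56.5. These bounds set the mean of the bright group against the higher of an array's lowest signal well above background and the probe's own signal. A second Cyp3a44 probe gave a smaller gap, with means of 8.15 in adult small intestine and 7.03 in adult colon. Cyp3a13, which lies apart from this cluster, was measured in all 4 groups, at 15.24 and 15.64 in adult small intestine and 10.74, 13.37 and 12.73 in adult colon. The adult colon pools of Cyp3a13 spread by more than 2 log2 units, and its tissue difference of -3.16 ± 0.89 (limma SE) missed the threshold (limma adjusted p = 0.115).

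The sequence upstream of 3 of these genes, which share the tissue pattern, is shown as a description. Their KO over wild type in adult small intestine was log2 0.30 and -1.05 for Cyp3a11 in pairs 1 and 2. It was 0.09 and -0.98 for Cyp3a16 and -1.01 and -0.82 for Cyp3a25. A difference in KO ratio between these genes was not tested. RefSeq promoters (GRCm38.p6) matched 43 of the 52 members, and the 250 bases before the start are printed 5′ to 3′ on the strand of the gene. Capitals mark GGAT or its reverse complement ATCC, the core that Spdef is known to prefer among ETS factors.
Cyp3a11: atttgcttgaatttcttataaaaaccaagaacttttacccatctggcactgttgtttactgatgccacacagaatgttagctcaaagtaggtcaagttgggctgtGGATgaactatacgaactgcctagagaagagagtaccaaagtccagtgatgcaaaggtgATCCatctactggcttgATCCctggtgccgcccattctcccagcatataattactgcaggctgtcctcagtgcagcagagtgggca
Cyp3a16: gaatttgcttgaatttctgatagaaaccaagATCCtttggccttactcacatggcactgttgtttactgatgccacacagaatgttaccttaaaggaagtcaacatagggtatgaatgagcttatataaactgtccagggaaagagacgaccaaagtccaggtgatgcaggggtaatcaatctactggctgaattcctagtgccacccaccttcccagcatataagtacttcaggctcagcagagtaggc
Cyp3a25: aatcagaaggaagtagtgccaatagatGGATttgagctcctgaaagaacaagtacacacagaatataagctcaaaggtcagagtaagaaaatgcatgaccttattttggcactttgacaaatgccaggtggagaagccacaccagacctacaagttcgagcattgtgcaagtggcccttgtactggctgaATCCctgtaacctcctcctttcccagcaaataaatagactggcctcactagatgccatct
They lie on the minus strand at chr5:145879855-145880104, chr5:145469724-145469973 and chr5:146009619-146009868. Cyp3a11 and Cyp3a16 were identical at 80.0% of the 250 positions in a global alignment, and Cyp3a25 matched them at 65.2% and 66.4%, against 58.4% to 58.8% for the unrelated Cyp2f2 promoter. GGAT in either orientation occurred 3 times in Cyp3a11, 1 time in Cyp3a16 and 2 times in Cyp3a25. It was found in 74.2% of all 27025 promoters and in 69.8% of those of members, so its presence here is near the rate of any promoter. TATAAA, a core promoter element, was in 15 of 43 member promoters (34.9%), against 13.0% of all. AGGTCA, an element of many nuclear receptors, was in 23.3% against 13.8%, and AGTTCA, an element bound by the drug sensor Nr1i2, in 14.0% against 11.9%. Members include paralogues with like promoters, such as Cyp3a11 and Cyp3a16, which both hold TATAAA. The 43 promoters are thus not independent, and nothing is read from these shares. A match of letters is a description and no test of binding.

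The Cyp2b genes, targets of the drug receptor Nr1i3 in liver, followed the Cyp3a pattern. Cyp2b9 was at 11.57 and 12.05 in adult small intestine and at 7.02, 6.89 and 6.99 in adult colon, where no array was above background, a level at least 27.8-fold higher in small intestine. Cyp2b13 was at least 11.5-fold higher there, and Cyp2b10, above background on 1 of 6 adult colon arrays, was at 9.5 and 10.01 against 6.98, 7.08 and 6.98. The second Cyp2b9 probe gave a smaller gap, with means of 7.91 in adult small intestine and 6.97 in adult colon. Cyp2b19 did not share the pattern, at 7.39 and 7.64 and 7.24, 7.58 and 7.34.

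Adult colon had its own members. Cyp2c55, an arachidonic acid oxidising enzyme, was at 15.30, 15.24 and 14.83 in adult colon, 8.86 and 10.37 in adult small intestine, 7.69, 7.64 and 8.88 in the libraries labelled fetal small intestine and 7.60 and 9.78 in those labelled fetal colon. Every adult colon pool exceeded every other pool, and the difference from adult small intestine was 5.51 ± 0.72 or 45.5-fold (limma adjusted p = 0.00927). Without adult small intestine pair 1 it was 4.75 with an adjusted p of 0.109. Cyp2f2, known for activating naphthalene in airway club cells, was at 12.25, 11.29 and 11.52 in adult colon and 7.15 and 7.14 in adult small intestine, where 0 of 4 wild type arrays were above background. Adult colon was at least 23.2-fold higher. Cyp2d13 was at 8.71, 8.16 and 8.41 against 6.94 and 6.95, at least 2.77-fold higher in adult colon. Cyp2d9 was at 13.20, 12.69 and 13.63 in adult colon and 11.71 and 12.22 in adult small intestine, with no overlap, but the difference of 1.21 ± 0.30 missed the threshold (limma adjusted p = 0.0845).

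Other members of families 2 and 4 were lower in adult colon than in adult small intestine. Cyp2d26, with 15.24 and 15.54 in adult small intestine, was at 12.50, 12.46 and 11.27 in adult colon, a difference of -3.31 ± 0.37 (limma adjusted p = 0.0048). Its call was lost without either adult small intestine pair, at adjusted p = 0.055 without pair 1 and 0.0788 without pair 2. Cyp4f14, which inactivates leukotriene B4, was at 15.98 and 15.76 in adult small intestine, 13.88, 13.32 and 13.46 in adult colon, 9.95, 9.96 and 8.58 in the libraries labelled fetal small intestine and 9.44 and 8.50 in those labelled fetal colon. Both adult tissues exceeded every fetal pool, and adult colon lay -2.32 ± 0.45 from adult small intestine (limma adjusted p = 0.0389). That tissue call was lost without any 1 of the 5 adult pairs, with adjusted p from 0.0718 without adult colon pair 1 and 0.0967 and 0.142 without pairs 2 and 3 to 0.267 and 0.295 without adult small intestine pairs 2 and 1. Cyp4v3, a fatty acid hydroxylase, was at 13.42 and 13.80 against 8.05, 9.19 and 8.58, 32.1-fold lower in adult colon. Cyp4b1 was at 12.54 and 12.67 against 8.16, 9.52 and 8.18, 15.8-fold lower, and both were above background on 5 of 6 adult colon arrays.

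In this adult tissue comparison 15 members passed the threshold of adjusted p 0.05 (limma, adjusted over all genes), against 3.16% of all genes. Of them 3 were higher in adult colon (all genes 1.68%) and 12 lower (all genes 1.48%), and since the rule used wild type signal nothing is read from these counts. On the slide that held adult small intestine pair 2 and adult colon pair 2, the difference was 4.87 for Cyp2c55, 4.15 for Cyp2f2, -5.98 for Cyp3a25 and -4.61 for Cyp4v3 (colon minus small intestine). Without the slide of the crossed fetal pools, 21 members passed (all genes 9.03%). The added members were Cyp26b1, Cyp2c23, Cyp2u1, Cyp4a10, Cyp4f16 and Cyp4f18, all lower in adult colon.

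From fetal to adult small intestine 14 members were higher and none lower past the threshold (limma; all genes 8.85% in either direction). They comprised the Cyp2b9, Cyp2b10 and Cyp2b13 genes, the 5 clustered Cyp3a genes, Cyp2d10 and 5 genes of family 4. The 8 Cyp2b and Cyp3a genes were kept through adult small intestine alone, where they are high, so nothing is read from the count of 14. Of the 32 members above background on all arrays of both groups 6 were higher and 0 lower, and all genes had 5.05% higher and 3.8% lower. All genes were not held to detection on every array of both groups. The shares are thus unlike, and nothing is read from this count either. Among members measured on every array of both groups, Cyp4v3 rose from 7.98, 7.91 and 7.89 in the libraries labelled fetal small intestine to 13.42 and 13.80, a difference of 5.70 ± 0.35 or 51.9-fold (limma adjusted p = 0.000263). Without the slide, with 1 fetal replicate and the spread of the adult pools, it was 5.67. Cyp4f14 was higher in adults by 6.61 ± 0.49 (limma adjusted p = 0.000503) and by 5.92 without the slide. Cyp4b1 was higher by 4.74 ± 0.55 (limma adjusted p = 0.00344) and by 4.27 without the slide. These 3 kept their calls in all alternatives run. Cyp4a10, Cyp4f18 and Cyp2d10 differed by 3.22 ± 0.56, 2.52 ± 0.43 and 1.06 ± 0.20 (limma adjusted p = 0.0173, 0.0165 and 0.0219). They lost their calls without adult small intestine pair 1 (adjusted p = 0.078, 0.0957 and 0.102), without pair 2 (0.142, 0.135 and 0.179) and without fetal small intestine pair 3, which is on the slide left out above, (0.073, 0.0805 and 0.134). Cyp2d10 also lost its call without fetal small intestine pairs 1 and 2 and without adult colon pair 3 (0.0537). With the mean of all kept probes of the gene, Cyp2d10 differed by 0.53 and did not pass (limma adjusted p = 0.0651). Its second probe had means of 7.38 in adult and 7.38 in fetal small intestine, so the probes of Cyp2d10 disagreed. Without the whole slide Cyp4a10 and Cyp4f18 differed by 2.45 and 1.97. In all 15 members then passed (all genes 6.45%), with Cyp2c23 and Cyp2c70 added, both lower in adults, and Cyp2d10 lost.

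From fetal to adult colon 9 members passed the threshold (limma; all genes 9.14%), 5 higher in adults (all genes 6.05%) and 4 lower (all genes 3.09%), and again nothing is read from these counts. Cyp2c55 was higher by 6.43 ± 0.72 or 86.3-fold (limma adjusted p = 0.00305). It was higher by 5.35 without the slide, which leaves 1 fetal colon replicate and the spread of the adult pools. Cyp2f2 rose from 7.89 and 7.49 in the libraries labelled fetal colon, by 4.00 ± 0.29 or 16-fold (limma adjusted p = 0.000548), and Cyp4f14 by 4.59 ± 0.45 (limma adjusted p = 0.00175). Without the slide Cyp2f2 was higher by 4.20 and Cyp4f14 by 5.06. These 3 kept their calls in all alternatives run. Cyp2d9 was higher by 1.83 ± 0.30 (limma adjusted p = 0.0133; 0.0664 without fetal colon pair 1). Cyp2d26 was lower in adults by -2.02 ± 0.37 and Cyp26b1 by -0.99 ± 0.21 (limma adjusted p = 0.0198 and 0.0311). Without the slide their adjusted p was 0.0775 and 0.123, above the threshold. The other 3 that passed were Cyp2d13, Cyp2j5 and Cyp7b1, each above background on all arrays of just 1 of the groups compared. Without the slide 10 members passed (all genes 10.1%): Cyp11a1, Cyp2c65, Cyp2c66, Cyp4a10 and Cyp4f18 were added, and Cyp2d26, Cyp2d9, Cyp2j5 and Cyp26b1 lost.

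In the fetal libraries several members split as the region markers did, and so across the labels. Cyp2c70, a bile acid hydroxylase of mice, was at 11.35, 11.34 and 8.29 in the libraries labelled fetal small intestine 1, 2 and 3, and at 11.01 and 8.03 in those labelled fetal colon 1 and 2. Its adult pools were at 7.88 and 7.90 in small intestine and 7.94, 7.68 and 7.81 in colon, so the high level was seen before birth and in 3 libraries. Cyp2c23, an epoxygenase of arachidonic acid, gave 10.53, 10.47 and 7.80 and 10.15 and 7.53, and Cyp4f16 gave 12.16, 12.13 and 9.70 and 11.75 and 9.82. Cyp11a1, which makes pregnenolone from cholesterol as the first step of steroid synthesis, ran the other way, at 7.43, 7.36 and 9.38 and 7.42 and 9.41. It was above background on 0 of 10 adult wild type arrays and on 10 of 10 fetal ones, and its second probe had group means of 8.46 and 8.26 in the fetal groups as labelled, against 7.04 and 6.95 in adult small intestine and colon. The 6 steroidogenic markers had a mean level of 7.46 and 7.34 in the 2 libraries where Cyp11a1 was high. In the other fetal libraries it was 8.01, 8.01 and 7.88, and their part in the Cyp11a1 level was not tested. Cyp2s1 ran the same way as Cyp11a1, at 11.57, 11.50 and 13.22 and 11.60 and 13.15. The 9 liver markers had mean wild type levels of 9.10, 9.09 and 8.83 in the libraries labelled fetal small intestine 1, 2 and 3. In those labelled fetal colon 1 and 2 they were at 10.07 and 8.57. Their part in the fetal Cyp levels was not tested. As labelled, 0 members differed between fetal colon and fetal small intestine (limma; all genes 0.00586%, and 0 members at an unadjusted p under 0.05). Without the slide, which leaves 1 replicate a group whose spread is taken from the adult pools, 4 members passed (all genes 3.01%). They were Cyp2c70 at -3.31 ± 0.26, Cyp2c23 at -2.96 ± 0.27 and Cyp4f16 at -2.33 ± 0.34, lower in fetal colon, and Cyp11a1 at 2.02 ± 0.27, higher (limma adjusted p = 0.0055, 0.0077, 0.0307 and 0.0223).

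Among the sterol, vitamin D and retinoic acid members, Cyp51, which demethylates lanosterol on the way to cholesterol, was at 9.83 ± 0.17 (SD, n = 2) in adult small intestine, 9.98 ± 0.30 (SD, n = 3) in adult colon, 10.38 ± 0.01 (SD, n = 2) in the libraries labelled fetal small intestine and 10.08 ± 0.47 (SD, n = 2) in those labelled fetal colon. From the lowest mean to the highest, neighbouring groups differed by less than the larger of their SDs. The lowest and highest groups did not overlap. Adult small intestine pools were at 9.70 and 9.95, and the libraries labelled fetal small intestine at 10.37, 10.40 and 10.37. That difference did not pass the threshold. Cyp7b1, an oxysterol hydroxylase, was lowest in adult colon at 7.87, 8.62 and 8.43, against 9.60 and 9.13 in adult small intestine. Cyp27b1, the 1-alpha-hydroxylase that activates vitamin D, lay between 7.31 and 7.76 in the pool means of all 10 wild type pools. It was above background on all wild type arrays, but near the level of probes that were not. Cyp2d13, for one, was at 6.94 and 6.95 in adult small intestine. A narrow range so near background does not show that the level of Cyp27b1 was stable. Cyp26b1, which clears retinoic acid, was at 8.32, 7.92 and 8.03 in adult colon and at 8.88 to 9.24 in the other pools, with no overlap.

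In adult small intestine 1 of 52 members passed the threshold for KO over wild type, against 0.398% of all genes, and 9 had an unadjusted p under 0.05. Cyp3a25 was lower in KO in both pairs, by log2 -1.01 and -0.82. Its wild type levels of 12.51 and 13.07 stood against KO levels of 11.50 and 12.25, so each KO pool was below both wild type pools. The difference was -0.91 ± 0.10 or 1.88-fold lower (limma adjusted p = 0.00732). The second Cyp3a25 probe gave a mean of -0.73. The call of the brightest probe was lost on the scanner's processed signals (limma adjusted p = 0.501) and with the group fitted alone (0.267). Without adult small intestine pair 1 the adjusted p was 0.0656, and without the slide of the crossed fetal pools 0.0535. Its probe lies at chr5:146281833-146281892 of build mm8.

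The other clustered Cyp3a genes differed between the pairs. Cyp3a11 gave log2 0.30 and -1.05 in pairs 1 and 2, Cyp3a16 gave 0.09 and -0.98, Cyp3a41a -0.03 and -0.90 and Cyp3a44 0.11 and -0.94. Pair 1 lay between -0.03 and 0.30, and pair 2 was lower in KO for all 4. The second Cyp3a44 probe had a mean of 0.24, against -0.41 for the probe used, so the probes of that gene disagreed. The KO pools were alike in level, at 12.72 and 12.81 for Cyp3a11, while its wild type pools were at 12.42 and 13.85, so the pairs differed in their wild type pools. None of the 4 passed with both pairs, and without pair 1 each did, at -1.05 for Cyp3a11, -0.98 for Cyp3a16, -0.90 for Cyp3a41a and -0.94 for Cyp3a44 (limma adjusted p = 0.0257, 0.00801, 0.0268 and 0.0262). That fit assumes that the remaining pair varies like the other groups. The pairs also differed in other genes: Xist, expressed from the inactive X chromosome of females, was -0.30 and 1.28 in KO over wild type, and the Y-linked Eif2s3y -0.13 and -1.10. Together with the pancreatic markers at 0.95 and -3.82, their part in the Cyp3a values was not tested. Cyp3a25, at -1.01 and -0.82, was measured in the same 2 pairs, and the part of those genes and markers in its ratios was not tested either. Cyp2c55 followed pair 2 too, with -0.12 and -1.37, and Cyp2c65 and Cyp2c66, neighbours of Cyp2c55 on chromosome 19, gave -0.39 and -0.73 and -0.40 and -0.72, lower in KO in both pairs but not past the threshold (limma adjusted p = 0.567 and 0.453).

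**Figure D3:**
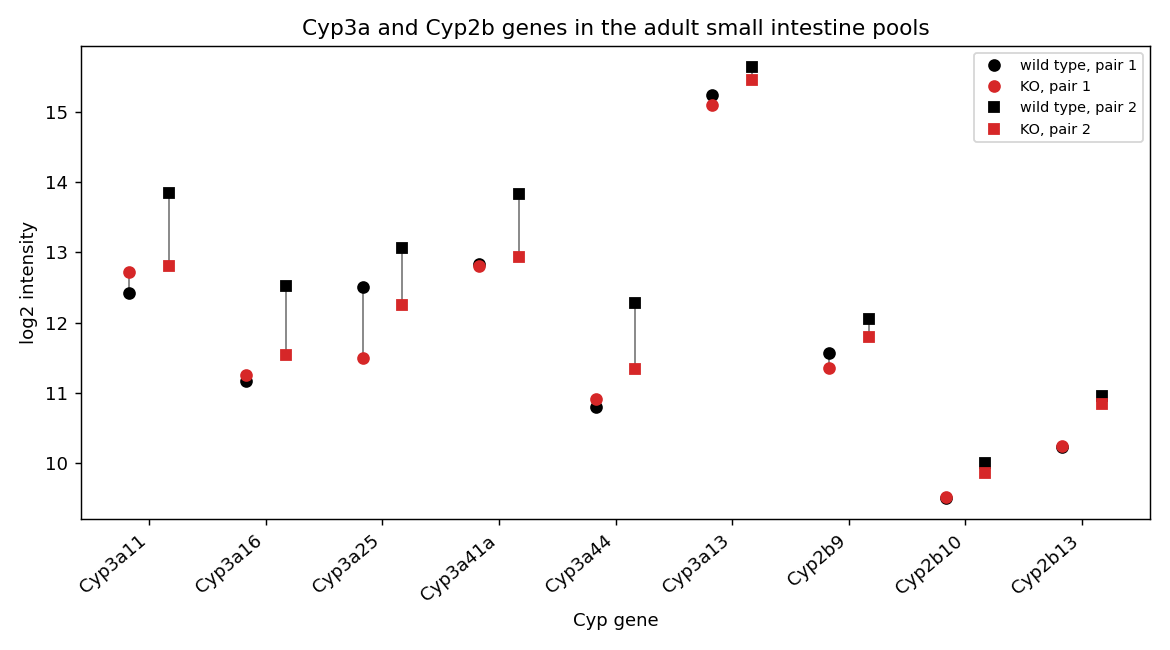
Log2 intensity (y axis) of 9 Cyp3a and Cyp2b genes (x axis) in the wild type (black) and KO (red) pools of adult small intestine, pair 1 as circles and pair 2 as squares, joined within a pair. Cyp3a25 falls in both pairs, by 1.01 and 0.82, while Cyp3a11, Cyp3a16, Cyp3a41a and Cyp3a44 are lower in pair 2 and the Cyp2b genes move by at most 0.25.

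In adult colon 8 of 52 members passed for KO over wild type, or 15.4% against 9.59% of all genes. Of them 2 were higher in KO (all genes 3.94%) and 6 lower (all genes 5.65%). Cyp2f2 had the largest difference of the 8: its wild type pools were at 12.25, 11.29 and 11.52 and its KO pools at 11.45, 10.64 and 10.87. The KO pool of pair 1 lay above the wild type pool of pair 2, so the pools of the groups overlap. The log2 ratio was -0.80, -0.65 and -0.64 in pairs 1, 2 and 3, lower in every pair, or -0.70 ± 0.07, 1.62-fold lower (limma adjusted p = 0.002). The call held without each replicate and without the slide (adjusted p = 0.00661), and was lost on the scanner's processed signals and the deposited series table (adjusted p = 0.0926 and 0.144). Xist gave 0.85, 0.97 and 0.13 in the 3 pairs. The pancreatic markers gave -2.60, -0.08 and -2.91. The part of either in the Cyp2f2 ratio was not tested. Its probe lies at chr7:26842311-26842370 of build mm8. The 250 bases before the RefSeq start of Cyp2f2, at chr7:27119705-27119954 on the plus strand of GRCm38.p6, hold GGAT 2 times, in capitals.
Cyp2f2: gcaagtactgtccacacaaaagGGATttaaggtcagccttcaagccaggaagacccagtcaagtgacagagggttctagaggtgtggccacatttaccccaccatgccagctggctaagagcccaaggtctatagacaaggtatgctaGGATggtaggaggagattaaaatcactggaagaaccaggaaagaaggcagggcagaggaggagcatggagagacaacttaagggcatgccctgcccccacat

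In the Cyp2d cluster Cyp2d9 and Cyp2d13 were lower in KO adult colon. Cyp2d9, whose product hydroxylates testosterone in liver, gave log2 -0.35, -0.37 and -0.56, or -0.43 ± 0.08 (limma adjusted p = 0.016, and 0.0257 without the slide). Its second probe gave a mean of -0.40. Cyp2d13 gave -0.20, -0.16 and -0.30 (limma adjusted p = 0.0284, and 0.06 without the slide). Cyp2d10 gave -0.22, -0.22 and -0.44 and did not pass (limma adjusted p = 0.0502). With the mean of all kept probes of a gene, Cyp2d10 passed at -0.22 and Cyp2d22 at -0.27 (limma adjusted p = 0.0427 and 0.00664). The probes of Cyp2d22 disagreed, at -0.12 for the brightest and -0.42 for the other (limma adjusted p = 0.338 for the brightest). Leaving out adult colon pair 1 or pair 3 ended the call of Cyp2d9 (adjusted p = 0.0738 and 0.0581), and leaving out pair 1, 2 or 3 that of Cyp2d13 (0.113, 0.0587 and 0.09).

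In the Cyp2c cluster Cyp2c40, a hydroxylase of arachidonic acid, gave -0.62, -0.39 and -0.98, or -0.66 ± 0.13 (limma adjusted p = 0.0247, and 0.0537 without the slide). Its neighbour Cyp2c29 gave -0.24, -0.46 and -0.62 (limma adjusted p = 0.0511). Cyp2c40 was lower in KO in adult small intestine too, by -0.75 and -0.27, which did not pass (limma adjusted p = 0.276). The call in adult colon was lost without adult colon pair 1 or pair 3 (adjusted p = 0.111 and 0.079). Cyp2c55, Cyp2c65, Cyp2c66 and the fatty acid hydroxylase Cyp4b1 disagreed between pairs 2 and 3. Cyp4b1 gave -0.27, -1.49 and 1.02, Cyp2c65 -0.05, -0.90 and 0.79, Cyp2c66 -0.16, -0.89 and 0.50 and Cyp2c55 0.05, -0.66 and 0.53 in pairs 1, 2 and 3. All 4 were lower in KO in pair 2 and higher in pair 3.

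The other 4 calls in adult colon were small. Cyp2j6 and Cyp2j13, of a family that makes epoxides of arachidonic acid, were higher in KO in all 3 pairs, by 0.27, 0.21 and 0.16 and by 0.27, 0.22 and 0.13 (limma adjusted p = 0.0214 and 0.0315). The second Cyp2j13 probe had a mean of 0.02, so the probes of that gene disagreed. Cyp20a1, an enzyme of unknown substrate, was lower by -0.23 ± 0.05 and the sterol 27-hydroxylase Cyp27a1 by -0.20 ± 0.05 (limma adjusted p = 0.0361 and 0.0485). None of these 4 passed without the slide (adjusted p = 0.0606, 0.0807, 0.0915 and 0.11), nor without adult colon pair 1 (0.122, 0.16, 0.0813 and 0.112) or pair 2 (0.0657, 0.1, 0.135 and 0.176). Without pair 3 Cyp20a1 and Cyp27a1 also missed it (0.0876 and 0.0841). Cyp2j13 and Cyp20a1 missed it as well without either fetal colon pair (0.0616 and 0.0664), and Cyp27a1 without any pair of the other groups (at most 0.0837). Smooth muscle markers were lower in KO in all 3 adult colon pairs, 5 of 5 markers being above background, with a mean ratio of -0.33, -0.60 and -0.21, and their part in these results was not tested. Epithelial markers (6 of 6 above background) had a mean ratio of 0.15, -0.02 and 0.22.

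**Figure D4:**
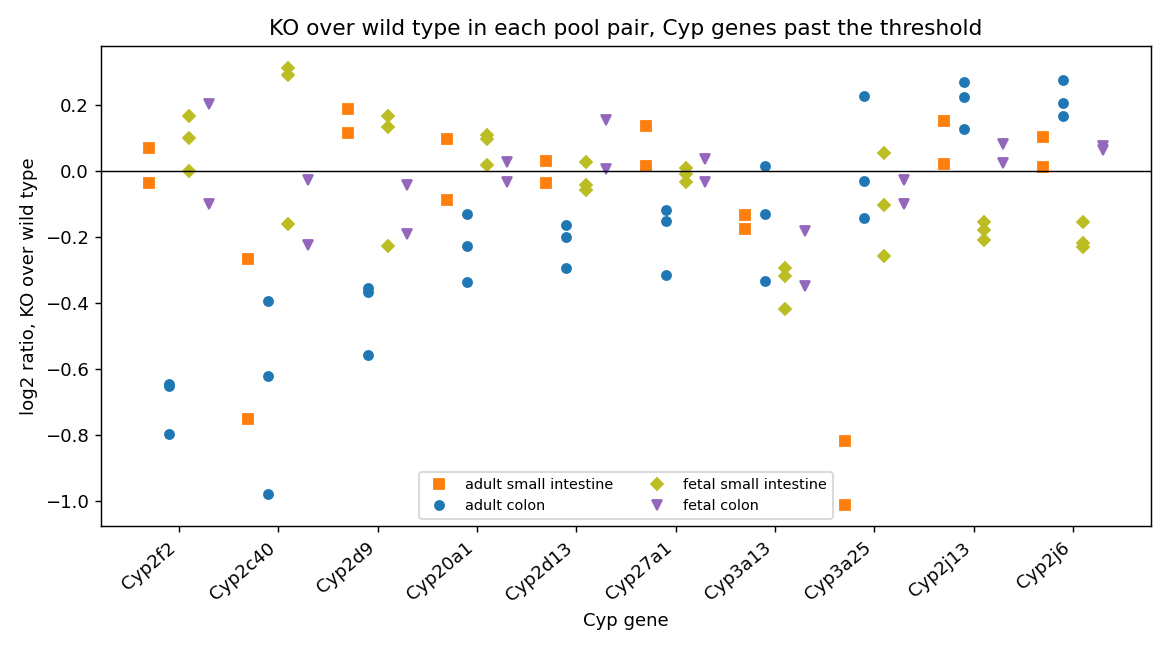
Log2 ratio of KO over wild type (y axis) in each pool pair for the 10 members past the threshold in any group or in the mean of the groups (x axis), 1 point per pair, groups by colour and shape as labelled. Cyp2f2 is lower in all 3 adult colon pairs and between -0.10 and 0.20 elsewhere, and Cyp3a25 is lower in both adult small intestine pairs.

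In the libraries labelled fetal small intestine and fetal colon 0 members passed for KO over wild type (limma; all genes 0.439% and 0.287%), with 6 and 3 at an unadjusted p under 0.05. Single pairs departed furthest for Cyp2c65, at -0.60 in the library labelled fetal colon 2 and -0.54 in that labelled fetal small intestine 3, and next for Cyp2c55, at 0.52 in the latter. Cyp3a13 was lower in KO in every fetal pair, by -0.29, -0.32 and -0.42 in those labelled small intestine and -0.35 and -0.18 in those labelled colon. With fetal small intestine pairs 1 and 2 counted apart, Cyp3a13 and Cyp2j6 passed in fetal small intestine at -0.34 and -0.20 (limma adjusted p = 0.031 and 0.0328). Cyp2c66 was at -0.30 and -0.35 in the libraries labelled fetal small intestine 3 and fetal colon 2, where Cyp2c65 was low too, and both lay between -0.21 and 0.19 in the other fetal pairs. Goblet cell markers, which the loss of Spdef is known to lower, had a mean ratio of -0.92, -0.98 and -1.0 in those labelled small intestine and -0.80 and -0.83 in those labelled colon, and their part in the Cyp ratios was not tested. The fetal KO and wild type pools also differed in sex genes, with Xist at -1.56, -1.66 and -1.12 in the pairs labelled small intestine and 3.44 and 4.60 in those labelled colon.

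Averaged over the 4 groups, 2 members passed (limma; all genes 1.78%). Cyp3a13 was lower by -0.23 ± 0.04 (limma adjusted p = 0.0299), with 9 of 10 pairs below 0, and Cyp3a25 by -0.26 ± 0.05 (limma adjusted p = 0.0364). Outside adult small intestine the Cyp3a25 probe was above background on 0 of 6 adult colon, 1 of 6 fetal small intestine and 0 of 4 fetal colon wild type arrays, so its mean restates the adult small intestine value. Without the slide neither passed (adjusted p = 0.256 and 0.166). Cyp3a13 also missed the threshold without any 1 adult small intestine or fetal replicate (adjusted p from 0.0611 without fetal small intestine pairs 1 and 2 to 0.133 without fetal colon pair 1). Cyp3a25 missed it without any 1 of those replicates and without adult colon pair 1 (adjusted p from 0.0531 without fetal small intestine pair 3 to 0.133 without fetal colon pair 2). The KO effect differed between adult colon and adult small intestine for 1 member (limma; all genes 0.158%), Cyp3a25, by 0.93 ± 0.12 (limma adjusted p = 0.0393). Its probe was not well above background on any adult colon array in either channel, 0 of 6 each, so the difference restates the fall in small intestine. That call held in 7 of 21 alternatives (adjusted p from 0.00906 to 0.781) and, among the fits without 1 replicate, just in that without adult colon pair 2. For Cyp2f2 the same difference was -0.71 ± 0.10 (limma adjusted p = 0.0582), with the small intestine near background. Between adult and fetal groups the KO effect differed for 0 members (limma; all genes 1.08%; 13 at an unadjusted p under 0.05). Cyp2f2 came nearest at -0.40 ± 0.08 (limma adjusted p = 0.0546).

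By role, the 33 members of families 1 to 3 held 1 of 1 call in adult small intestine and 6 of 8 in adult colon, where 0.398% and 9.59% of all genes passed. Their median log2 ratio was -0.07 and -0.03, against -0.01 and -0.00 over all genes. None of the 8 fatty acid hydroxylases passed for KO over wild type in any group, with group means between -0.33 and 0.20. Of the 7 sterol, bile acid and steroid genes 1 passed, Cyp27a1 in adult colon, and neither of the 2 vitamin D genes nor Cyp26b1 passed in any group. With groups this small, nothing is read from these counts. Cyp4f13, Cyp4f14 and Cyp4f16 lie on the chromosome of Spdef, 17, at 4.84 to 5.22 Mb from it (mm8), where sequence of the targeted chromosome can stay linked to the null allele, and Cyp39a1 and Cyp1b1 lie 15.8 and 52.2 Mb away. None of these 5 passed for KO over wild type in any group.

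Of 98 other genes of P450 electron supply, regulation, conjugation and transport that were tested, from a list of 103, 1 was higher and 9 were lower in KO adult colon, 10.2% of them. That share is near the 9.59% of all genes, so it is no result about the list, and without the slide 0 were higher and 2 lower, Abcb1b and Hsd3b2 (limma adjusted p = 0.0411 and 0.0331). The efflux pumps Abcb1a and Abcb1b were lower by -0.56 ± 0.10 and -0.46 ± 0.07 (limma adjusted p = 0.0171 and 0.0112). The alcohol dehydrogenase Adh1 was lower by -0.54 ± 0.12 and the steroid dehydrogenase Hsd3b2 by -0.38 ± 0.06 (limma adjusted p = 0.0337 and 0.0116). The flavin monooxygenase Fmo2 and Hsd11b2, which inactivates glucocorticoids, were lower by -0.36 ± 0.08 and -0.31 ± 0.06 (limma adjusted p = 0.0295 and 0.021). The sulfotransferase Sult2b1 was higher by 0.32 ± 0.06 (limma adjusted p = 0.0157). In adult small intestine 1 gene of the list passed, the carbonyl reductase Cbr1, higher by 1.08 ± 0.16 (limma adjusted p = 0.0418, and 0.14 without the slide). In fetal small intestine and fetal colon as labelled 0 passed. Another 3 were lower in KO adult colon by less, Hsd3b6, Aox1 and Gstt1. The list covers P450 reductase, receptors of foreign compounds, phase II enzymes and transporters, and its median log2 ratio in adult colon was -0.03, against -0.00 over all genes. Of the same list 14 genes were higher (all genes 5.05%) and 4 lower (all genes 3.8%) in adult than in fetal small intestine. In adult against fetal colon as labelled 20 were higher and 4 lower (all genes 6.05% and 3.09%). Among them was Vdr, the vitamin D receptor that induces P450s of family 3, higher in adults by 3.53 ± 0.40 in small intestine and by 4.03 ± 0.36 in colon (limma adjusted p = 0.00314 and 0.00137). Without the slide, with 1 replicate in each fetal group, its differences were 3.04 and 4.45.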

How the data were processed

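RNA of 20 pools was labelled and hybridised in pairs to 20 two-colour Agilent arrays, scanned with Agilent Feature Extraction 9.5.3 per the submitters' processing notes. The deposited scanner files give each spot's mean and local background intensity in both channels, per the file headers. A deposited table of the series gives log2 values, KO relative to wild type. Between 49.0% and 72.7% of its values per array were exactly 0, its medians were 0, and its normalization is not given in the sources used here. It served as an alternative.

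Intensities were background corrected (normexp, offset 50) and loess normalized within arrays in limma 3.58.1 (R 4.3.3), with control spots at weight 0. Wild type levels are log2 intensities after Aquantile scaling. Dye swaps were averaged, and fetal small intestine pairs 1 and 2 merged, which gave 9 replicates and 5 residual degrees of freedom. The limma fit covered 17067 genes with 1 probe each, with Benjamini-Hochberg adjustment and a threshold of 0.05. ± is the limma SE unless given as SD. The labels give 2 to 3 littermates per pool. The fit assumed independent pools, apart from the merged pairs, and p-values measure the spread between these pools. The number of arrays limits the precision.

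All members may be named. Full statistics went to members past the threshold, at most 8 a direction, and to support genes past it, at most 6 a direction. The part of that rule on the brightest member of a role group was not used, since levels of different probes cannot be compared, and Hsd3b6, Aox1 and Gstt1 were named after their values were seen. Members, roles and lists were chosen with earlier results of these data known. Probe names were updated through RefSeq tables, so Cyp2c23, Cyp3a41a and Cyp4a12a stand for the older Cyp2c44, Cyp3a41 and Cyp4a12. Alternatives changed the background, scaling, filter, probe choice, blocks and replicates.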

Additional observations from a re-analysis of the deposited data

Results flagged for a closer look

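For Cyp3a25 the test of the KO effect between the adult tissues passed: adult colon minus adult small intestine was 0.93 on the log2 scale (limma adjusted p = 0.0393), and 1 such difference among the 52 members passed the threshold. The ratios were -1.01 and -0.82 in adult small intestine and -0.03, -0.14 and 0.23 in adult colon, where the probe was well above background on 0 of 6 arrays, so the difference restates the fall in small intestine. The call was lost in 14 of 21 alternatives.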

How the results depend on the processing

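Numbers are Cyp genes past the threshold, and no called value changed sign under any alternative. The share of all genes past the threshold also moved between settings. It is not set beside these counts, so nothing about the members is read from them. For KO over wild type, adult small intestine (1) gave 0 on the scanner's processed signals, without the slide of the crossed fetal pools and fitted alone, and 2 on the series table. Adult colon (8) gave 2 on processed signals, on the series table and without that slide, 1 with median centring and fitted alone, and 5 without background subtraction. Fetal small intestine (0) gave 2 with pairs 1 and 2 separate. The mean of the groups (2) gave 1 on processed signals and 0 with median centring or without the slide. The difference between adult tissues (1) gave 0 on processed signals, with median centring, without background subtraction, without a filter, without the slide and fitted alone, and 2 on the series table, with the slide as a random block and with the pairs separate. The difference between ages (0) gave 2 on the series table and with the mean of all probes, and 3 with the pairs separate. In wild type, adult against fetal small intestine (14) gave 23 with the 75th percentile of processed signals, adult against fetal colon (9) gave 3 fitted alone, and the fetal tissues (0) gave 4 without the slide. The cause of these changes was not tested. Leaving out 1 replicate gave 1 to 4 in KO adult small intestine, 1 to 9 in KO adult colon, 0 to 2 for the mean, 0 to 1 for each difference, 10 to 17 for the adult tissues, 11 to 17 for small intestine by age, 3 to 10 for colon by age, and 0 for both fetal KO comparisons and the fetal tissues.

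Whether replicate numbers pair the samples could not be settled. Deviations from the group mean correlated between -0.13 and 0.15 for same-numbered pairs and between -0.16 and 0.16 for others. In groups of 2 pairs these deviations mirror each other, so similar ranges were largely fixed in advance. With a replicate block 2 members passed in KO adult small intestine, 2 in KO adult colon, 0 for the mean, 1 for the difference between ages and 3 for colon by age. Median centring moved the median of all genes by up to -0.14, in fetal colon. Signal near background limits Cyp3a, Cyp2b and Cyp2f2 outside the tissue where each was high.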
